A study of Mus musculus with 2 samples.

Results

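The EGR and AP-1 immediate early genes were examined in M/E cells, a line of murine marrow origin that the leukaemia oncogene MLL/ENL keeps growing. The set holds 10 genes out of 27670 named genes on the array. They are the zinc finger factors Egr1, Egr2 and Egr3, the FOS factors Fos and Fosb, the JUN factors Jun, Junb and Jund, and the response genes Ier2 and Ier3. Of these, 9 were found by the gene name in the scanner files. Jund was found by its accession, since the array names it Jund1. The 10 genes are read by 13 probes, with 1 probe for 7 genes and 2 probes for Egr3, Junb and Ier2. Egr2, Fos and Jun are each printed in 10 spots per array.

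Both cultures carried MLL/ENL and the genotype Mef2c del/-, and per the labels they express no functional MEF2C of their own. The control culture was infected with the empty vector MYs-iPAC. The other culture received MYs-pMef2cASR, which encodes MEF2C-ASR, a mutant of MEF2C that does not bind histone deacetylases and is constitutively active. After puromycin selection the cells were put into fresh medium with 10% FCS, SCF at 100 ng/ml, and GM-CSF, IL3 and IL6 at 10 ng/ml, and were harvested after 6, 24 and 48 h. RNA from the 3 harvests of a culture went into a single pool, so each group is 1 array of 1 pool. No replicate exists, no test was possible, and a response that differs between the 3 times cannot be seen. "Higher" and "lower" describe these 2 arrays.

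Immediate early genes are transcribed soon after a growth factor or stress signal reaches the cell, without the need for new protein, and their transcripts usually decay again quickly. ERK signalling acts on many of them through serum response factor and its ETS partners at CArG boxes in their promoters. FOS and JUN proteins pair to form AP-1, while EGR proteins bind GC-rich sites on their own and induce their own corepressors, the NAB proteins. In the myeloid lineage EGR1 and EGR2 are known for favouring macrophage over granulocyte development. MEF2 factors bind a site in the Jun promoter and are themselves held inactive by class IIa histone deacetylases, the contact that the ASR mutant lacks.

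Promoter windows, from 250 bases before to 50 bases after a start site, were read from RefSeq (build GRCm38.p6) for the members in that table, which are 7 of 10. The search covered 6 motifs on both strands. These were the CArG box, the MEF2 box and the NF-kB box by their usual consensus, the AP-1 site TGANTCA, the CRE site TGACGTCA and the EGR site GCGNGGGCG. No matches overlapped. Shown are 4 windows, those of Jun and Egr2 for their sites of MEF2 and serum response factor, and those of Ier3 and Fos as genes that were brighter with MEF2C-ASR. Capitals mark the MEF2 box in Jun, the CArG box in Egr2 and an NF-kB box in Ier3 and Fos.
Jun, chr4:95052173-95052472, minus strand: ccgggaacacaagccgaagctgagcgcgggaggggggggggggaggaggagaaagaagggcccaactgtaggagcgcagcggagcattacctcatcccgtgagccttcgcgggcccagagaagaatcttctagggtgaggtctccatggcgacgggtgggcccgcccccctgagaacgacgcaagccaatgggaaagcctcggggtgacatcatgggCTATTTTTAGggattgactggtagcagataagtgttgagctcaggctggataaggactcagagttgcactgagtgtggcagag
Egr2, chr10:67537619-67537918, plus strand: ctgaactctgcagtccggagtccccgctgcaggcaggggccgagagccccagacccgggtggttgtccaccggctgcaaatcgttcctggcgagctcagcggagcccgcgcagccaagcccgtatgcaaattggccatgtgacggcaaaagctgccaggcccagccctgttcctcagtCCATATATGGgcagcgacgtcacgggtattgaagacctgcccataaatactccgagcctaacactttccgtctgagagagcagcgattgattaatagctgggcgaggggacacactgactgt
Ier3, chr17:35821463-35821762, plus strand: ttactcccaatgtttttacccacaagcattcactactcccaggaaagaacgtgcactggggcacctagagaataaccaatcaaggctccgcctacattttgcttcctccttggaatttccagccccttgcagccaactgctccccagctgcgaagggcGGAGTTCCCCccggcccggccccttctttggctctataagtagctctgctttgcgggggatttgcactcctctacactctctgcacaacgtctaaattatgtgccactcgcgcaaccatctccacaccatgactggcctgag
Fos, chr12:85473640-85473939, plus strand: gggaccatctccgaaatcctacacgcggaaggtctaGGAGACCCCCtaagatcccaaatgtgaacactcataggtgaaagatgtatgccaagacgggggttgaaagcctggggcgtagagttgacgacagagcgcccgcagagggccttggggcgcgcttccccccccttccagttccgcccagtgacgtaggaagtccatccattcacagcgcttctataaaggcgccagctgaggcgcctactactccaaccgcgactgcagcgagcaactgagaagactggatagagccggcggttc
The MEF2 box of Jun, CTATTTTTAG, begins 33 bases before the start site, and 3.19% of all 32851 RefSeq windows hold a MEF2 box. The CArG box in the Egr2 window shown, CCATATATGG, begins 72 bases before the start site, and 1.63% of all windows hold one. The 7 members have 11 windows, since Egr2 has several start sites. The window shown is 1 of 4 Egr2 windows with a CArG box, and another Egr2 window holds none. From other start sites the same box lies 73 or 133 bases away, and CCTTTTTTGG is also among the boxes of the 4 windows. Fosb holds an EGR site (5.55% of all windows). The NF-kB box (4.51% of all windows) was found in Ier3, Fos and also Fosb, which was level between the arrays as given below. No window was at hand for Egr1 or Egr3, so the boxes shown do not set the brighter genes apart. No window of these members holds the exact letters of the AP-1 site (7.81% of all windows) or the CRE site (1.79%). Variants of these sites were not searched for, so the windows are not shown to lack such elements. A match describes letters in the window and shows no binding.

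Signals are the processed spot intensities on a linear scale, and differences are on the log2 scale after each array's 75th percentile was set equal. Of 43379 spots the scanner software called 60.1% well above background for the control and 67.5% for MEF2C-ASR. The dimmest spot so called had a signal of 38.3 in the control and 19.98 with MEF2C-ASR, so a dim gene was harder to measure in the control. Mef2c itself had signals of 795 and 1969 with its brighter probe (2.54-fold) and was not well above background with the other, and the labels do not say whether the vector's transcript holds these probes' targets. Progenitor markers fixed for the check, such as Kit, Myb and Ptprc, were well above background on both arrays, 6 of 6. Of 11 granulocyte markers on the array 5 were past 2-fold with the higher level in MEF2C-ASR (summed signal 670558 against 907792), and of 13 monocyte and macrophage markers 6 were (179384 against 245955), with Mrc1 alone not well above background on either array. Defining markers of other lineages, such as Cpa3, Tpsab1, Ebf1, Cd3g, Ncr1, Dcn and Kdr, were well above background on neither array. The part of these markers in the values below was not tested, and more cells of a type cannot be told apart from more RNA per cell in such bulk samples. Nothing in the labels says that a pool held more than 1 culture per group.

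**Figure D1:**
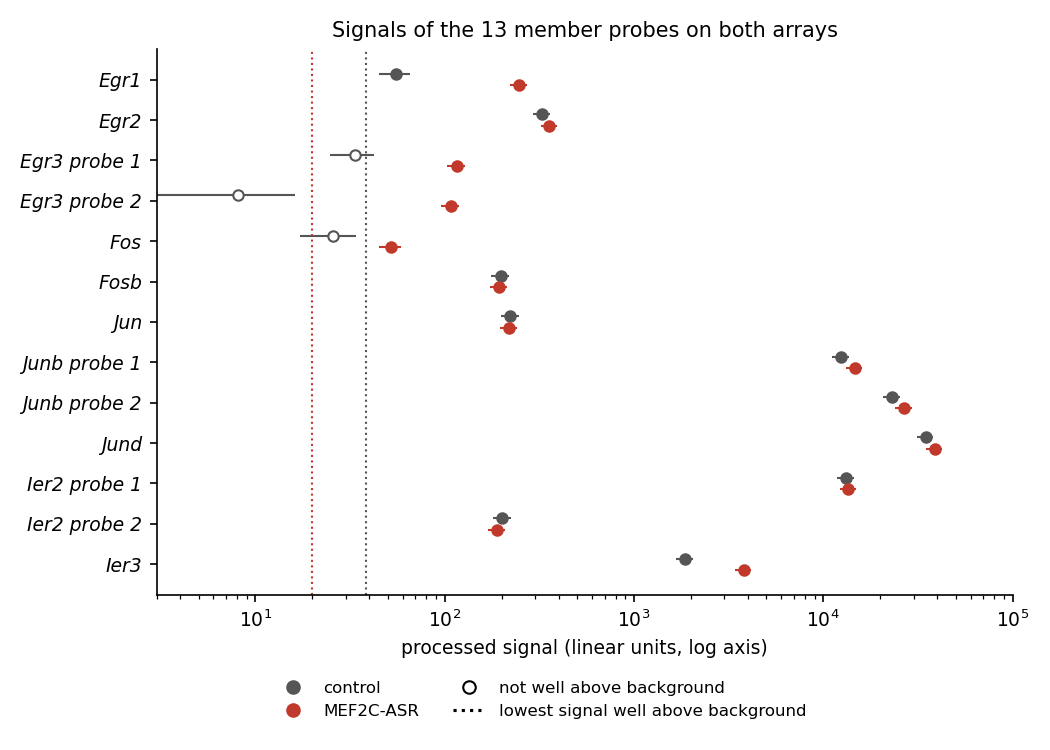
Processed signal (horizontal log axis, linear units) of each of the 13 probes of the 10 genes on the control array (grey) and the MEF2C-ASR array (red). Bars are the error the scanner software gives, cut at the axis for the second Egr3 probe, open points were not well above background, and dotted lines mark the lowest signal well above background on each array. Egr1, both Egr3 probes, Fos and Ier3 lie to the right with MEF2C-ASR, while the points of the other genes lie close together.

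Of the 10 genes 8 were measured on both arrays, which means well above background and below saturation. Egr1 and Ier3 were past 2-fold, both with the higher level in the MEF2C-ASR culture, and none was 2-fold lower. Among all 16574 measured genes 1.74% were at least 2-fold higher and 1.91% at least 2-fold lower, which is 289 and 316 genes, or 218 and 430 with spike-in scaling. Egr3 and Fos stood clear of background in the MEF2C-ASR array only, and Egr3 passed 2-fold by its bound, as did 3.77% of the 2200 genes seen on that array alone. The median difference of the 8 measured members was 0.18, beside -0.03 for all measured genes, and 0.04 beside -0.17 with spike-in scaling. The other 6 measured members lay between 0.01 and 0.26.

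Egr1, the best known of the EGR activators and a common readout of ERK signalling, had a signal of 55.3 ± 10.1 in the control and 245.7 ± 24.97 with MEF2C-ASR, where the error is that of the scanner software. The control value stands just above the lowest signal counted as well above background there, and the MEF2C-ASR value far above it. The log2 difference was 2.19, or 4.56-fold, with a scanner error of 0.30. Among the 4144 dimmest of the measured genes, which include Egr1, repeated probes had a single-spot error of 0.30, and 2.29% of the genes were at least 2-fold higher. The Egr1 difference is large beside that spotting error. Of the 153 negative control spots 3 reached the Egr1 signal in the control and 0 with MEF2C-ASR. With normexp background correction at an offset of 50, which shrinks differences between low signals, the difference was 1.36. The Egr1 probe, a single spot, lies on chromosome 18 from 35240842 to 35240901. The sources used here do not name the build of this and the following probe positions.

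Egr2, known as Krox20 and needed for peripheral myelin as well as for macrophage development, was read in 10 spots on chromosome 10 from 67145376 to 67145435. Control spots ran from 294.7 to 353.4 with a median of 326.0. MEF2C-ASR spots ran from 326.5 to 384.4 with a median of 354.1. The ranges overlap, but at each of the 10 positions the spot was brighter with MEF2C-ASR after scaling. The mean difference was 0.16 with a standard deviation of 0.04 over 10 spots, or 1.118-fold. These spots share 1 labelled RNA per array and are no replicates of a culture. How often other repeated probes were brighter at every position is not given here. A scaling by the spike-in spots lowers every gene's difference by the same amount and left Egr2 at 0.02.

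Egr3, which acts beside Egr2 in lymphocytes, is read by probes at 2 places on chromosome 14. The probe from 64723504 to 64723563, named by the RefSeq transcript, had signals of 33.5 in the control and 115.7 with MEF2C-ASR. The probe from 64726656 to 64726715, named by another cDNA, had signals of 8.06 and 107.4, the first being a surrogate that the software sets for spots too dim to measure. Both were well above background with MEF2C-ASR and neither was in the control. Against the lowest level well above background in the control, Egr3 was at least 3.10-fold higher with the first probe and at least 2.87-fold higher with the second. The bound was 0.89 on the log2 scale with normexp, below 2-fold. Of the 153 negative control spots of the control array 3 reached the brighter Egr3 probe and 86 the dimmer one. On the MEF2C-ASR array 0 reached either.

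**Figure D2:**
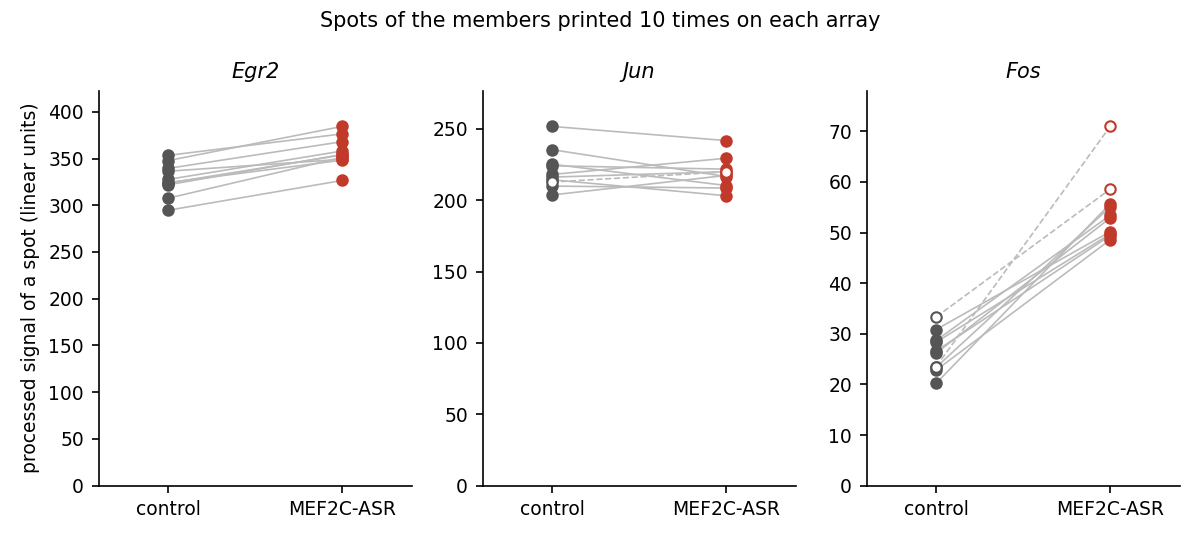
Processed signal (vertical axis from 0, linear units) of every spot of Egr2, Jun and Fos on the control array (grey) and the MEF2C-ASR array (red), with lines joining the same position on both arrays. Open points with dashed lines were flagged as outliers on either array and left out. Fos spots lie higher on the MEF2C-ASR array, but none on the control array was well above background. Egr2 spots shift slightly upward, and Jun spots cover the same range. The spots of an array share the same labelled RNA and are no replicates.

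Fos, the partner that turns JUN into the stable AP-1 dimer, was dim on both arrays. After 2 of 10 spots were left out as outliers, the control spots ran from 20.2 to 30.8 with a median of 26.4. The MEF2C-ASR spots ran from 48.6 to 55.7 with a median of 51.5. The ranges do not overlap, and all 8 positions were brighter with MEF2C-ASR. The spots of an array share the same labelled RNA. How often other repeated probes separate in this way is not given here, so no weight is put on it. None of the control spots was well above background, and all MEF2C-ASR spots were. The measured means differed by 1.05 with a standard deviation of 0.25 over 8 spots, which is 2.07-fold, but the control value is limited by background. The bound was therefore at least 1.39-fold, short of 2-fold. On the control array 6 of 153 negative control spots reached the median Fos spot, and on the MEF2C-ASR array 0 did. Keeping the flagged spots moved the bound from 0.47 to 0.53. The probe lies on chromosome 12 from 83478431 to 83478490.

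Fosb, a close relative of Fos, had a signal of 197.4 in the control and 194.1 with MEF2C-ASR (chromosome 7, 16985502 to 16985561). The log2 difference was 0.01 with a scanner error of 0.21. Fosb was level between the arrays within that error.

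Jun, whose promoter holds the MEF2 box shown above, was read in 9 spots after 1 outlier was left out (chromosome 4, 94441779 to 94441838). Control spots ran from 203.7 to 251.7 with a median of 218.1. MEF2C-ASR spots ran from 203.2 to 241.8 with a median of 217.4. The ranges cover each other, with 5 positions brighter and 4 dimmer with MEF2C-ASR. The mean difference was 0.02 with a standard deviation of 0.07 over 9 spots, or 1.01-fold. With spike-in scaling it was -0.12. The sign of the Jun difference therefore depends on the scaling, and the spread between cultures is unknown.

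Junb and Jund, the JUN factors that often restrain growth, had signals far above background. The Junb probe at chromosome 8, 83563059 to 83563118, had signals of 12407 in the control and 14617 with MEF2C-ASR. The overlapping probe at 83563097 to 83563156 had 23014 and 26732. The differences of 0.27 and 0.25 were alike, though the probes share part of their target and are not independent. Jund (chromosome 8, 69154598 to 69154657) had signals of 34686 and 38737, a difference of 0.20. Each scanner error was 0.20, while single-spot differences of repeated probes among the 4144 brightest genes varied by 0.06. With spike-in scaling Junb stood at 0.12 and Jund at 0.06. Neither was near 2-fold in any setting.

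Set against Jun on the same arrays, which needs no scaling, Junb was 1.19-fold higher, Jund 1.13-fold and Egr2 1.11-fold. Egr1 was 4.51-fold higher relative to Jun and Ier3 2.07-fold. Fosb and Ier2 had ratios of 0.997 and 0.999 to Jun.

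Ier2 and Ier3 share a name but not a role. Ier2 is a short nuclear protein induced by growth factors, and Ier3, also called IEX-1, is a stress-induced regulator of survival downstream of NF-kB and ERK. For Ier2, the probe at chromosome 8, 83243584 to 83243618, had signals of 13170 in the control and 13557 with MEF2C-ASR. The probe at 83243758 to 83243816 had 201.1 and 189.4. The differences were 0.08 and -0.05, so both probes found little change. Ier3 (chromosome 17, 33924245 to 33924304) had a signal of 1857 in the control and 3788 with MEF2C-ASR. The difference was 1.06, or 2.09-fold, with a scanner error of 0.20 and a spotting error of 0.07 in its class of 4143 genes by level, of which 1.33% were at least 2-fold higher. It lies at the edge of the 2-fold rule and had 0.92 with spike-in scaling.

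**Figure D3:**
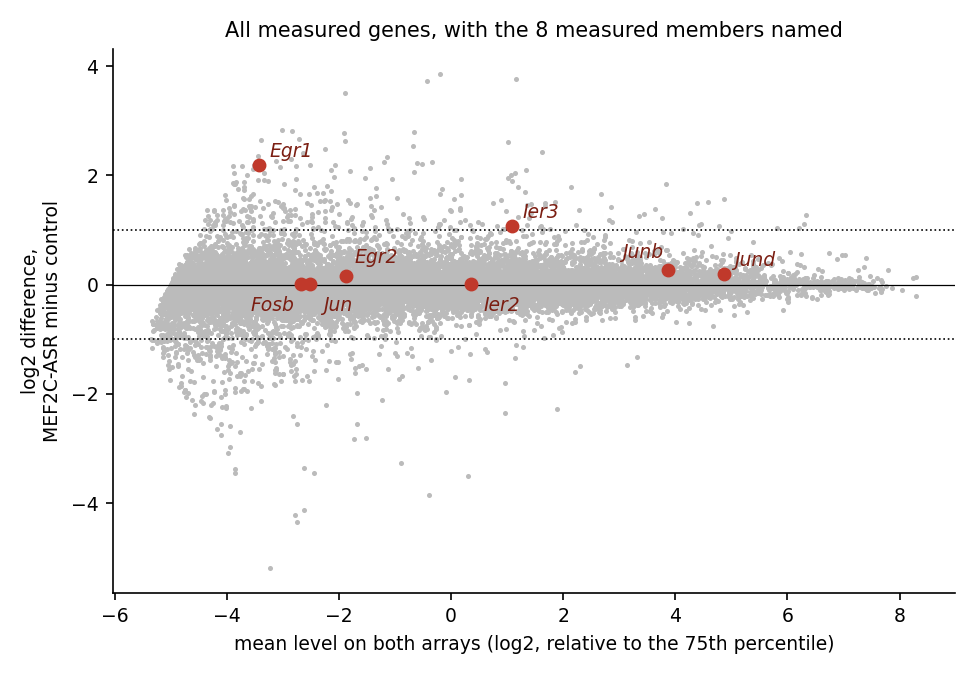
Log2 difference, MEF2C-ASR minus control (vertical axis), against the mean level of each of the 16574 measured genes (horizontal axis, log2 relative to the 75th percentile). Red points are the 8 measured members and dotted lines mark 2-fold. Egr1 at 2.19 and Ier3 at 1.06 lie above the upper line, and the other 6 lie among the bulk of genes.

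Among relatives and partners of these factors 11 of 13 genes were measured, 1 was at least 2-fold higher and 0 were lower. The shares over all measured genes were 1.74% and 1.91%. The median difference of the 11 genes was 0.37, with 8 above 0 and 3 below, beside a median of -0.03 for all measured genes. Batf3, an AP-1 factor of dendritic cells, was the higher gene, with signals of 148.0 and 342.2 (2.37-fold, and 0.96 on the log2 scale with normexp, below 2-fold). Egr4 and Wt1, EGR family zinc finger genes, were not well above background on either array. Values named after they were seen include those of the EGR corepressors, Nab1 at 1.37-fold and Nab2 at a log2 difference of 0.58 (253.2 and 370.4), and of the AP-1 repressor Jdp2 at 1.67-fold and the stress-induced factor Atf3 at 1.55-fold. Those of Fosl1 and Fosl2, the other FOS relatives, were -0.22 and 0.05. Spike-in scaling left the median at 0.23.

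Of 25 upstream kinases and promoter factors 24 were measured, and none was 2-fold apart in either direction. The median was -0.03, equal to that of all genes, and the values ran from -0.56 to 0.44. The genes of highest mean level over their probes were the p38 kinase Mapk14 (25123 in the control and 23514 with MEF2C-ASR, a difference of -0.06) and serum response factor, Srf (13399.6 and 11577.6, -0.17). The ETS partner Elk1 was called well above background on neither array. For the kinase Braf, named after its values were seen, 6 probes gave differences from -3.04 to 0.19, so its mean of -0.46 rests on probes that disagree.

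Among other immediate early genes 38 of 43 on the array were measured, 2 were at least 2-fold higher and 0 lower, beside 1.74% and 1.91% of all measured genes. The median of the 38 genes was 0.22, with 27 above 0 and 11 below, and 0.08 with spike-in scaling. For all measured genes these medians were -0.03 and -0.17. The higher genes of the list were Socs3, a feedback inhibitor of cytokine receptors (1383 and 3923, 2.91-fold), and Zfp36l1, an RNA-binding protein that promotes decay of AU-rich transcripts (754.4 and 1533, 2.08-fold). Zfp36l1 was below 2-fold with spike-in scaling (0.92). Nr4a1, a nuclear receptor gene known as a MEF2 target in T cells, was named after its value was seen and stood at -0.04 (2703 and 2562). Its relatives were similar or dim, with Nr4a2 at 0.13 and Nr4a3 not well above background on either array. The probes of Klf2 disagreed, with differences of -0.36 and 1.44.

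Of 24 textbook EGR and AP-1 targets 20 were measured, 4 were at least 2-fold higher and 0 lower, with a median of 0.43. Over all measured genes the shares were 1.74% and 1.91%, and the median was -0.03. The largest difference in the list was that of the cytokine Il1b (129.9 and 866.6, 6.84-fold). The cytokine Tnf was 2.13-fold higher, the matrix protein gene Thbs1 2.02-fold and the inhibitor of helix-loop-helix factors Id3 2.01-fold, and these 3 did not reach 2-fold when scaled by spike-in spots (0.95, 0.87 and 0.87). With normexp Thbs1 had 0.96 and Id3 0.48. Fibronectin, Fn1, was higher by a bound of at least 4.15-fold, the largest of its 3 probes. On the log2 scale that bound was 2.05, against 1.11 with normexp and a value of 1.31 with all probes kept. Metalloproteinase genes of this list were picked out once their values were known. Mmp9 had signals of 1042 and 1746 (1.71-fold), and Mmp13 was well above background with MEF2C-ASR (15.1 and 45.2, a bound of 1.21-fold). Mmp3 was well above background on neither array. Many of these targets answer to other factors as well, and several, such as Il1b and Tnf, are made by monocytes. Markers of granulocytes and of monocytes were also higher, as given above, and their part in these values was not tested.

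**Figure D4:**
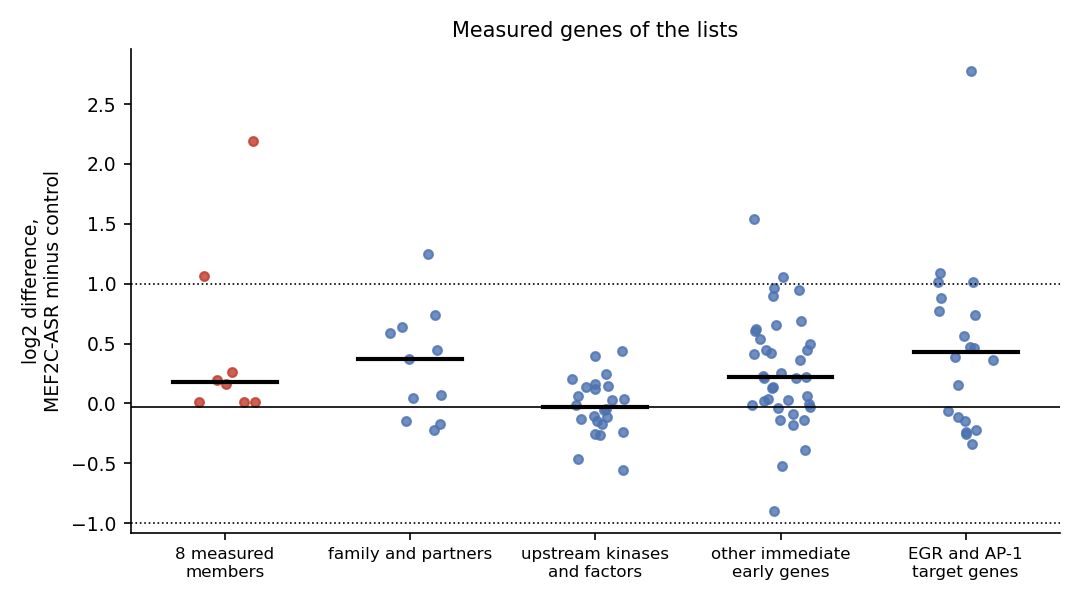
Log2 difference, MEF2C-ASR minus control (vertical axis), of each measured gene of the 8 members (red) and of 4 lists of related genes (blue), with a black bar at the median of each list. The thin line is the median of all measured genes (-0.03) and dotted lines mark 2-fold. The upstream kinases and factors centre on the line of all genes, and the medians of the other lists lie between 0.18 and 0.43.

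The members' values were also computed with 10 other ways of processing. Egr1 lay between 1.36 and 2.22 in the 10 of 11 settings that give it a value, since the setting with brighter probes alone leaves it out. Ier3 lay between 0.92 and 1.08. Junb stayed between 0.12 and 0.28, Jund between 0.06 and 0.21 and Egr2 between 0.02 and 0.17. Jun, Fosb and Ier2 had values on both sides of 0, from -0.13 to 0.08. The JUN factors were below 2-fold in each of these settings.

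**Figure D5:**
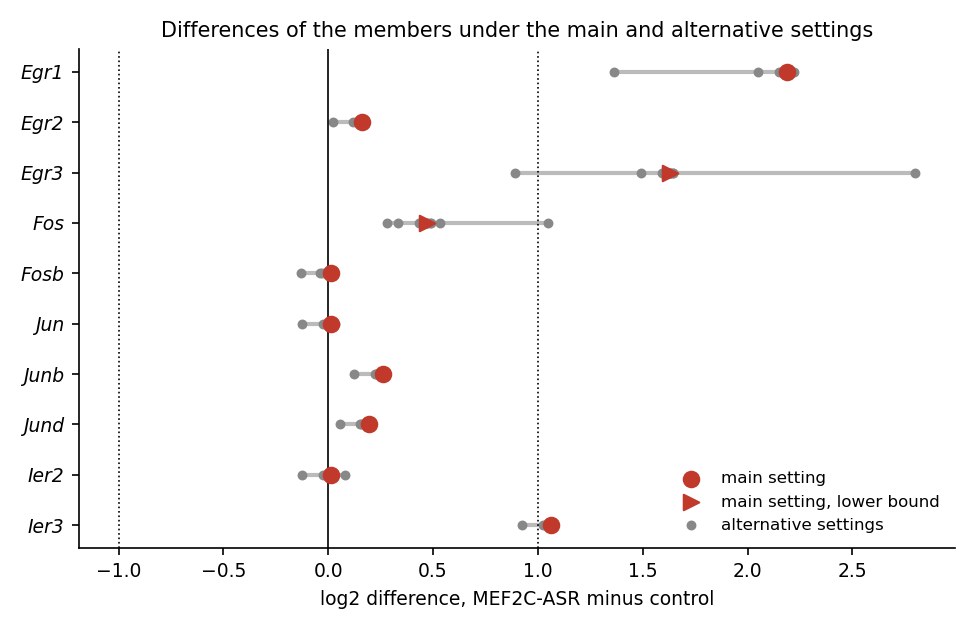
Log2 difference, MEF2C-ASR minus control (horizontal axis), of each of the 10 genes in the main setting (red circles, or triangles for the lower bounds of Egr3 and Fos) and in the alternative settings that give a value (grey). Grey bars span all settings and dotted lines mark 2-fold. Only Egr1 lies past 2-fold in every setting that gives it a value, while Ier3, Egr3 and Fos cross the line in at least 1 setting.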

How the data were processed

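Total RNA of 2 cultures was labelled with Cy3 and hybridised to Agilent whole mouse genome arrays, 1 array per culture. The authors deposited spot intensity values that come from Feature Extraction 9.5.1.1, whose spatial and multiplicative detrending were switched on, per the file headers. No normalization between arrays is recorded there. The authors' value table holds the same linear signals (column medians 85.8 for the control and 83.2 for MEF2C-ASR). Signals were converted to log2, each array's 75th percentile (1272 and 1240) was subtracted, outlier spots (by the flag of at least 1 array) were dropped, spots of a probe were averaged, and a gene's value was the mean of its probes measured on both arrays. A single array per group gives no spread between replicates and hence no p-value. A difference of at least 2-fold served as a rule of size, in place of a test. Probes seen on 1 array were given a bound, computed against the dimmest level well above background on the other, or the probe's own if higher.

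The error given by the scanner software includes a fixed share near 10% of the signal. The spotting error came from 150 probes printed 10 times. Probes were named through RefSeq (GRCm38.p6): 22944 by accession, 6664 by symbol, 3108 by an older symbol, and 8458 kept the file's name. All 10 genes are given with every probe. From each list the genes at least 2-fold apart are named, or the 2 of highest mean level. The members, lists and rules were chosen with earlier results of these data known. The steps were tested on simulated arrays, where changed genes left out the dimmest class and both arrays had the same background calls. That test therefore does not cover Egr1 or the bounds of Egr3 and Fos. Alternatives used limma 3.58.1 (normexp at offset 50 and quantile normalization) and other scalings, filters and flags, 10 in all.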

Additional observations from a re-analysis of the deposited data

How the results depend on the processing

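The number of members at least 2-fold higher was 2, and it was 1 with spike-in scaling (Ier3 was below 2-fold), 1 with brighter probes alone (Egr1 has no value there) and 4 with all probes kept, where Egr3 and Fos count. Over all genes 289 were higher and 316 lower, against 164 and 120 with normexp, 790 and 980 with all probes kept, 203 and 109 with brighter probes alone, and 218 and 430 with spike-in scaling. Spike-in scaling moved the median of all genes from -0.03 to -0.17. In the list of family and partners the count higher was 0 with normexp, and with all probes kept the count lower was 1 (Egr4) and the median 0.049. Among the other immediate early genes the count higher was 1 with spike-in scaling and 1 with normexp, and the count lower was 1 (Arc) with spike-in scaling. Among the target genes the count higher was 2 when scaled by spots well above background on both arrays, 1 with spike-in scaling, 2 with normexp and 7 with all probes kept. With all probes kept Egr3 stood at 2.80 and Fos at 1.05, values limited by background. Local backgrounds of 687 control and 916 MEF2C-ASR spots flagged as background outliers were replaced by the array's median before normexp, because the fit failed on a few of them, a step chosen after seeing the data. Dim probes limit Egr1, Egr3 and Fos, and the spread between cultures is unknown for all 10 genes. No paired analysis was possible because each group has 1 array.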
